A study of Mus musculus with 6 samples.

Results

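Lymph node iNKT1 cells are the invariant natural killer T (iNKT) cells of mouse lymph node that carry transcripts of the T-bet and natural killer (NK) receptor programme. They were picked from each lymph node library by a gate on 14 genes. A cell passed with 1 or more unique molecular identifiers (UMIs, each standing for 1 captured transcript) in at least 2 of the 8 markers Tbx21, Il2rb, Klrb1c, Klrd1, Klrk1, Klrc1, Cd160 and Xcl1. It also had to hold 0 UMIs of Gzma, Ccr6, Il23r, Blk, Ccl1 and Top2a. Only barcodes with 300 to 4000 genes and at most 15% mitochondrial UMIs were considered. The gate kept 981 of 5486 lymph node cells, 528 in library 1 and 453 in library 2, out of 16532 cells in the whole series.

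iNKT cells carry a semi-invariant T cell receptor (TCR) that recognises lipids on CD1d. They mature into effector-like subsets. iNKT1 cells depend on the transcription factor T-bet, answer IL-12, IL-18 and IL-15, make interferon-γ and carry receptors of NK cells. iNKT17 cells make IL-17 and are known to be common in peripheral lymph nodes, whereas liver is dominated by iNKT1 cells. A transcript present in a cell is often not captured, so a cell-by-cell gate on sparse counts can miss cells that express its markers and can keep cells that express its excluded genes.

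The study profiled iNKT cells sorted from lymph node, spleen and liver by droplet-based single-cell RNA sequencing, with 2 biological repeats per organ. All mice were wild-type (WT) C57BL/6 and 5 weeks old, with no treatment named, so organ is the only factor in the labels. CD8+ and B220+ cells had been depleted with magnetic beads, and TCR-β+ CD1d-tetramer+ cells were then sorted. The labels state neither the sex of the mice, the number of mice per library, nor which lymph nodes were taken. The cells considered, 2638 to 2861 in each of the 6 libraries, held 4758138 to 10870838 UMIs per library, and those of the 2 lymph node libraries held 5126226 and 4758138. Lymph node libraries had 0 Xist UMIs, and 191 and 189 UMIs of 4 Y-linked genes in the iNKT1 cells, while liver and spleen libraries had 2420 to 7362 Xist UMIs in their iNKT1 cells and none of these 4 genes. Sex and organ therefore cannot be told apart in any comparison between lymph node and another organ. Any 2 libraries shared 6 to 20 cell barcodes.

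Of the lymph node cells, 20.0% of library 1 (exact binomial 95% interval 18.5 to 21.6%, for counting error only) and 15.9% of library 2 (14.6 to 17.3%) passed the gate, a mean of 18.0% ± 2.91 (SD, n = 2). The same gate took 52.5% ± 4.42 of spleen cells and 77.3% ± 0.908 of liver cells (SD, n = 2 each). The organs did not overlap. These shares are given as a description, because the markers chose the cells and because 2 libraries against 2 allow no small exact p. Depth also differed, as liver libraries had medians of 3592 and 2880 UMIs per cell, against 1730.5 and 1470 in lymph node and 1724 and 1554 in spleen. After every cell was thinned to 1000 UMIs, and 265 and 488 shallower lymph node cells were left out, the gate kept 11.9% ± 1.36 of lymph node, 37.3% ± 2.48 of spleen and 48.8% ± 3.03 of liver cells (SD, n = 2 each). The order of the organs was the same at both depths.

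**Figure D1:**
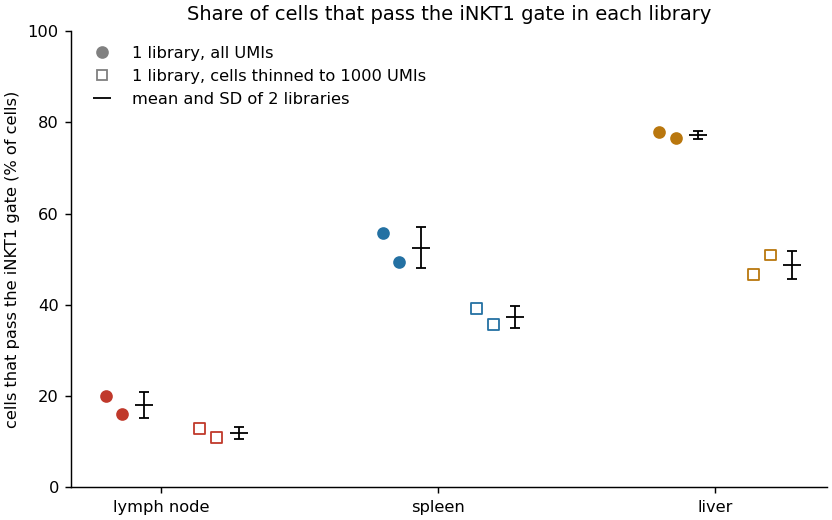
Percentage of cells that pass the iNKT1 gate, 1 point per library, at full depth (filled circles) and after thinning to 1000 UMIs per cell (open squares), with the mean and SD of 2 libraries. Both lymph node points lie at 15.9 and 20.0% at full depth, below every spleen and liver point.

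The 5 NK receptor genes of the gate encode the NK1.1 antigen (Klrb1c), the CD94 and NKG2A chains (Klrd1, Klrc1), the activating receptor NKG2D (Klrk1) and CD160. Il2rb encodes the β chain shared by the IL-2 and IL-15 receptors, Tbx21 encodes T-bet and Xcl1 encodes the chemokine lymphotactin. Klrk1 had a UMI in 49.6 and 53.6% of the lymph node iNKT1 cells, and Xcl1 in 53.0 and 44.4%. Klrb1c followed with 35.6 and 35.5%, Klrd1 with 32.8 and 36%, Il2rb with 31.8 and 36.6%, and Cd160 with 29.7 and 26.9%. Klrc1 was seen in 15.3 and 17.9% and Tbx21, the gene of the lineage factor, in 11.7 and 12.1%. In lymph node cells with a UMI of Ccr6, Il23r or Blk, genes of the type 17 lineage, Tbx21 was seen in 1.99 and 1.46%, Xcl1 in 5.06 and 5.53%, and Klrk1 in 20.6 and 16.7%. Median depth was 2011 and 1751 UMIs in those cells and 1403.5 and 1199 in the iNKT1 cells. The gate chose the iNKT1 cells by these markers, so their higher shares follow from the choice and are no result.

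Lymph node iNKT1 cells mostly sat close to the threshold. Exactly 2 markers were found in 307 and 263 of them (58.1% in each library), exactly 3 in 155 and 123, and 4 or more in 66 and 67 (12.5 and 14.8%). No cell had all 8. In spleen 28.3 and 22.6%, and in liver 57.4 and 56.5%, of the gated cells had 4 or more markers, again at greater depth in liver. Among lymph node cells with exactly 2 markers, Klrk1 with Xcl1 was the commonest pair in both libraries, with 42 and 27 cells. An NK receptor gene of the gate was absent from 48 and 38 of the iNKT1 cells. Just outside the gate, 576 and 620 lymph node cells had 1 marker and none of the 6 excluded genes, 892 and 1069 had neither, and 85 and 86 had 2 or more markers together with an excluded gene.

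The cells were checked against markers that the gate did not use. Transcripts of the CD3 chains were found in 99.6 and 98.9% of lymph node iNKT1 cells, while Foxp3, the regulatory T cell factor, had 0 UMIs in both libraries and the CD8 genes had 0 and 1. The 4 NK cell genes Ncr1, Eomes, Klra8 and Klri2 had 3 UMIs in all in each library. The 8 iNKT1 genes outside the gate (Ifng, Ccl5, Nkg7, Stat4, Il12rb2, Il18rap, Ctsw and Hopx) summed to 4450 and 5275 unscaled CPM (a gene's UMIs for every 1000000 UMIs of the pool of cells, ribosomal, rRNA and haemoglobin genes left out) in the iNKT1 cells, against 1383 and 1265 in the remaining cells of the same libraries. The 8 iNKT17 genes outside the gate summed to 331 and 335 unscaled CPM in the iNKT1 cells, against 1318 and 1353 in the remaining cells. The 8 iNKT2 genes (Zbtb16, Gata3, Il4, Izumo1r, Icos, Il17rb, Ccr4 and Il6ra) summed to 1396 and 1326 unscaled CPM in the iNKT1 cells, with a UMI in 70.6 and 64.7% of them, against 1737 and 1789 in the remaining cells, with a UMI in 82.1 and 80.7%. The label iNKT1 was kept, with type 17 and iNKT2 list RNA whose part in the results was not tested beyond the values given beside them.

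Several genes outside the gate were followed by the number of markers a cell held. The values here are unscaled CPM, and Ccl5, Nkg7, Klrc2 and Pxdc1 were among the genes with the largest change across the gate, so the choice of genes fixed their direction there. Ccl5, the gene of the chemokine RANTES, stood at 432 and 346 in cells with 0 markers, 838 and 659 with 1, 1629 and 1760 with 2, 2381 and 2837 with 3 and 3434 and 5236 with 4 or more. Nkg7, a protein of cytotoxic granules, went from 619 and 686 just outside the threshold to 1129 and 1392 just inside it and 1884 and 2492 at 4 or more. Klrc2, the gene of NKG2C, was at 6.56 and 10.8 just outside, 49.8 and 62.4 just inside and 446 and 280.0 at 4 or more markers. Each of these 3 genes was higher at every further marker in both libraries. The immune GTPase gene Gimap4 behaved differently, with a step at the threshold from 925 and 942 to 1522 and 1306 and little more at 4 or more (1525 and 1568). Il7r, the IL-7 receptor gene, went the other way, from 1141 and 1180 at 0 markers to 738 and 748 at 2 and 322 and 560.0 at 4 or more. Pxdc1, like Il7r a gene of the type 17 list, was at 229.7 and 299 at 0 markers and 24.8 and 42.0 at 4 or more. These steps are a description and were not tested.

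**Figure D2:**
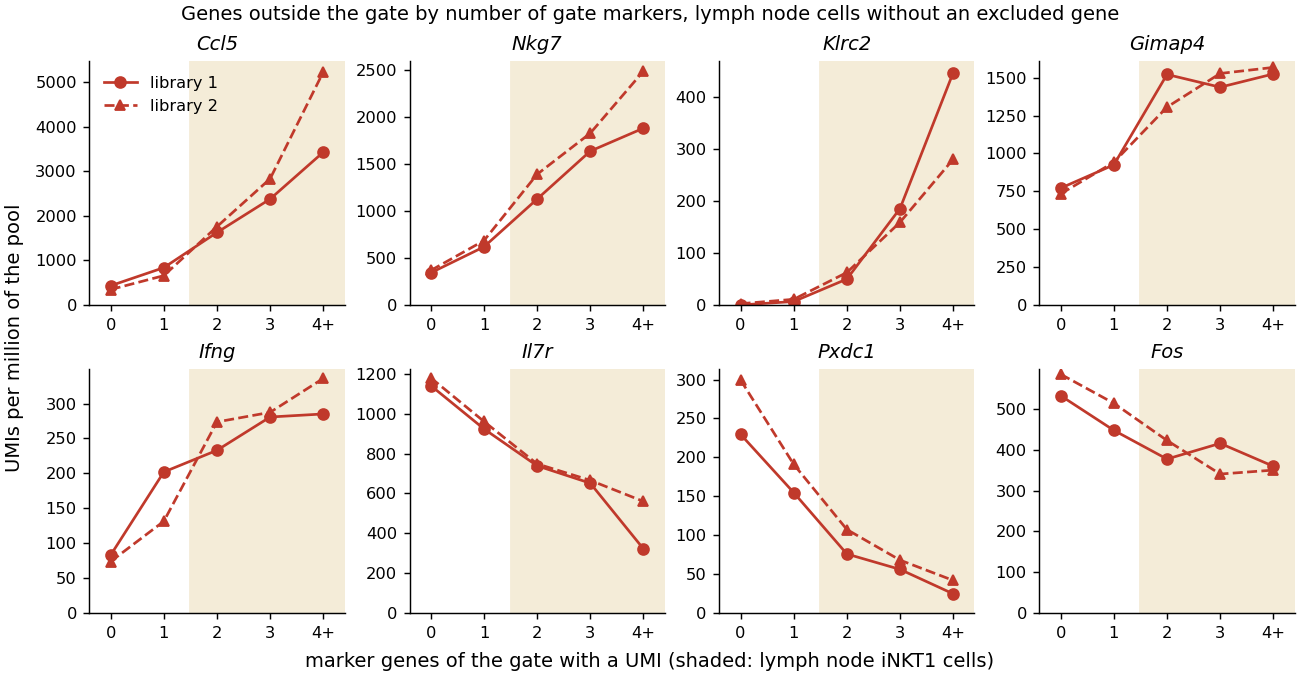
Unscaled CPM of 8 genes outside the gate in lymph node cells without an excluded gene, pooled by the number of gate markers with a UMI (0, 1, 2, 3, and 4 or more), 1 line per library. The shaded range holds the iNKT1 cells; Ccl5 climbs from 432 and 346 to 3434 and 5236, while Pxdc1 falls from 229.7 and 299 to 24.8 and 42.0.

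The first comparison asked how lymph node iNKT1 cells differed from the other iNKT cells of the same libraries. UMIs were summed per library over the iNKT1 cells and over the remaining cells, and the sums were tested with edgeR's quasi-likelihood test with Benjamini-Hochberg adjustment over all genes, with library as a block. A gene is called changed at an adjusted p below 0.05, levels are from here on CPM of the sums after scaling unless called unscaled, and each log2 fold carries its standard error (n = 2 libraries). Of 9619 genes tested, 680 (7.07%) were called, 365 higher (3.79%) and 315 lower (3.27%) in iNKT1 cells, and 122 of the higher and 148 of the lower genes changed at least 2-fold. The median log2 fold over all tested genes outside the gate was -0.02. The 14 gate genes are in the counts of calls and are not read as results. Outside them, 357 of 9605 genes were called higher (3.72%) and 309 lower (3.22%). The remaining cells hold all cells with an excluded gene, 642 and 706 of them, so genes that go with Ccr6, Il23r, Blk or Top2a were in part placed by the choice of cells. The iNKT1 cells were also shallower than the remaining cells, with medians of 1403.5 and 1199 against 1814 and 1540 UMIs.

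Type 1 effector and signalling genes were higher in lymph node iNKT1 cells. Of 20 tested genes of this list, 14 rose, 1 fell and 5 did not pass, and the median log2 fold was 1.22. Ccl5 stood at 2169 and 2650 CPM in the iNKT1 cells and 512 and 469 CPM in the remaining cells (log2 fold 2.28 ± 0.15, adjusted p = 0.00500). Nkg7 stood at 1434 and 1733 against 396 and 429 CPM (log2 fold 1.94 ± 0.05, adjusted p = 6.37e-63). The libraries of the 2 classes did not overlap for either gene, as was so for 43.3% of all 9619 tested genes. Ifng, the interferon-γ gene, was at 266 and 297 against 100.4 and 79.0 CPM (log2 fold 1.63 ± 0.11). Hopx, a homeodomain cofactor of type 1 T cells, was at 108 and 122 against 36.4 and 30.9 CPM (log2 fold 1.76 ± 0.18), and Stat4, which relays IL-12 signals, at 47.5 and 61.1 against 16.7 and 16.8 CPM (log2 fold 1.68 ± 0.25). Il12rb2, the inducible chain of the IL-12 receptor, rose from 4.34 and 2.58 to 26.2 and 21.1 CPM. Il18r1 was the 1 gene of the list that fell, at 282 and 301 against 456 and 522 CPM, whereas its partner chain Il18rap rose (41.0 and 88.5 against 39.4 and 36.4 CPM). Cxcr3, a chemokine receptor of type 1 cells, was at 426 and 306 against 171 and 161 CPM. Without lymph node replicate 2 the log2 fold of Il18rap was 0.07 and it was not called. Runx3 did not pass, with 128 and 133 against 108 and 106 CPM.

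Of 20 tested NK receptor and adaptor genes that are not gate genes, 11 were higher and none lower by this test, with a median log2 fold of 1.86. Klrc2 (NKG2C, ENSMUSG00000052736, chromosome 6, 129647496 to 129660689) had the largest fold of the named genes, 144 and 124 CPM in iNKT1 cells and 5.00 and 5.48 CPM in the remaining cells (log2 fold 4.67 ± 0.24, adjusted p = 5.09e-37). Of the Ly49 receptor genes, Klra1 was at 128 and 269.8 against 30.0 and 51.2 CPM and Klra3 at 83.6 and 101 against 13.0 and 18.4 CPM. Klra1 was higher in library 2 than in library 1, and both libraries lay above the remaining cells. Ly49 genes and the Klrc genes have near-identical copies that can share reads, so the split between them is uncertain. Klrc1 is a gate marker, so reads shared with it would have placed part of the Klrc2 value by the choice of cells, and the size of that part was not tested. Fcer1g, an adaptor of activating NK receptors, was at 42.6 and 88.5 against 9.67 and 14.5 CPM, and Slamf7, a SLAM family receptor, at 77.0 and 103 against 23.0 and 16.1 CPM. Cd7 did not pass (log2 fold -0.13 ± 0.08). The myeloid list, which also holds Fcer1g and Tyrobp, had 175 and 171 UMIs in the iNKT1 cells with Csf1r at 0, and its part in the Fcer1g value was not tested.

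The other genes with the largest increases were Ly6c2, Samd3, Ifitm10 and Fgl2. Ly6c2, the gene of a Ly6C antigen of memory T cells, was at 728 and 807 CPM in iNKT1 cells and 191 and 154 CPM in the remaining cells (log2 fold 2.14 ± 0.11). Fgl2, a fibrinogen-like protein of T cells, was at 157 and 175 against 38.0 and 52.5 CPM. Samd3 and Ifitm10 were each higher, with log2 folds of 1.91 ± 0.20 and 1.91 ± 0.19.

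**Figure D3:**
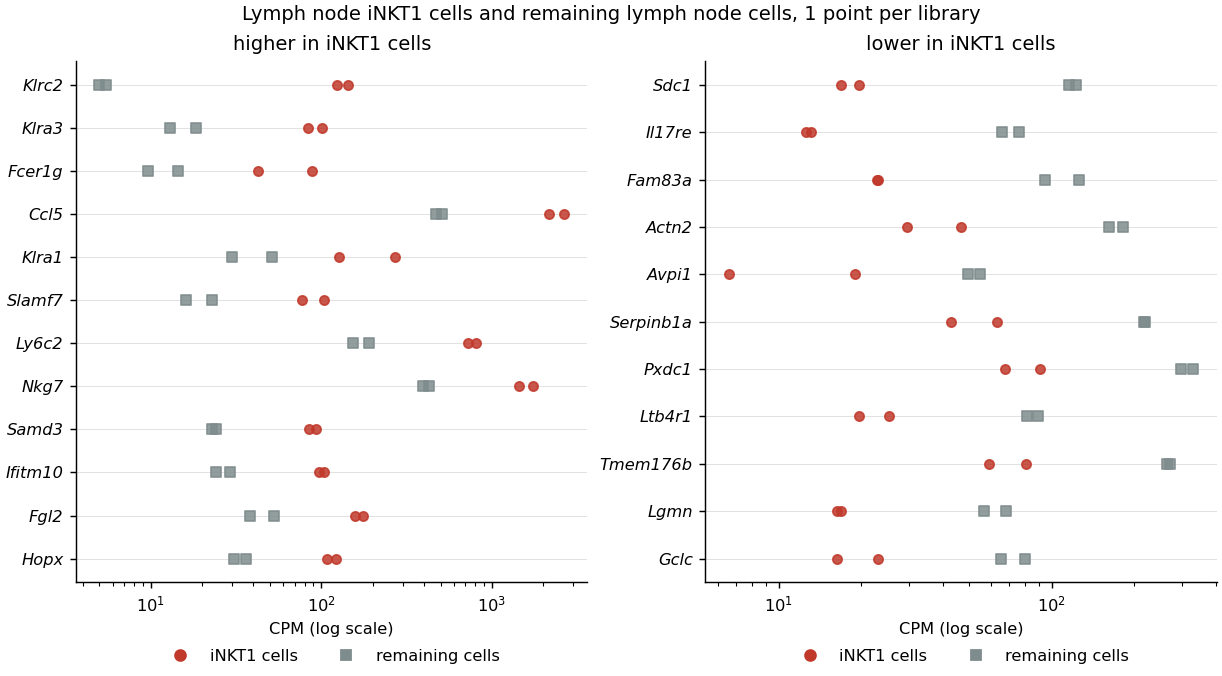
CPM on a log scale of the 12 genes with the largest increase (left) and 11 of the 12 with the largest decrease (right) in lymph node iNKT1 cells, with 1 point per library for iNKT1 cells (circles) and for the remaining cells (squares). No gene shown has libraries of the 2 classes that overlap (43.3% of tested genes have none), for example Klrc2 at 144 and 124 against 5.00 and 5.48 CPM.

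Type 17 genes were lower. Of 19 tested, 17 fell, none rose and 2 did not pass, and the median log2 fold was -1.70. Since the gate asked for 0 UMIs of Ccr6, Il23r and Blk, the direction of this list follows in part from the choice of cells. Sdc1, the syndecan-1 gene (ENSMUSG00000020592, chromosome 12, 8771323 to 8793715), was at 19.7 and 16.9 CPM in iNKT1 cells and 115 and 123 CPM in the remaining cells (log2 fold -2.68 ± 0.24, adjusted p = 6.55e-18), and Il17re, an IL-17 receptor chain, at 13.1 and 12.6 against 65.7 and 75.7 CPM. Tmem176b stood at 80.3 and 59.0 against 272 and 263 CPM, and Serpinb1a at 42.6 and 63.2 against 219.8 and 218 CPM. Maf had the smallest change of those that fell (234 and 223 against 279 and 286 CPM, log2 fold -0.30 ± 0.10) and was not called without either lymph node replicate. When the remaining cells were restricted to those without an excluded gene, 16 of 19 genes of the list were still called lower, with a median log2 fold of -1.07.

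Outside these programmes, the largest decreases were in Fam83a, Actn2, Avpi1, Lgmn and Gclc. Actn2, an α-actinin gene, was at 29.5 and 46.4 CPM in iNKT1 cells and 162 and 182 CPM in the remaining cells (log2 fold -2.21 ± 0.19). Gclc, a subunit of the enzyme that starts glutathione synthesis, was at 16.4 and 23.2 against 65.0 and 79.9 CPM, and Lgmn, the lysosomal protease legumain, at 16.4 and 16.9 against 56.7 and 68.0 CPM.

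The Gimap genes, which encode immune GTPases, were all higher. Each of the 8 tested genes rose, and the median log2 fold was 1.16. Gimap4 was at 1574 and 1456 CPM in iNKT1 cells and 668 and 648 CPM in the remaining cells (log2 fold 1.21 ± 0.05, adjusted p = 3.37e-45), and Gimap7 at 115 and 105 against 42.4 and 46.4 CPM (log2 fold 1.32 ± 0.17). The 8 rose in each of the alternative settings run for this comparison, including without either lymph node library. The lowest level of Gimap4 was in cells with Ccr6, Il23r or Blk, at 265 and 233 unscaled CPM. In the survival list, 4 of 14 genes rose, and 2 without lymph node replicate 1. Bcl2, an inhibitor of apoptosis, stood at 144 and 158 against 53.4 and 49.0 CPM (log2 fold 1.55 ± 0.15) and Socs2, a feedback gene of cytokine signalling, at 85.2 and 92.7 against 56.0 and 50.3 CPM. Bcl2a1b and Bcl2a1d, near-identical copies, rose as well. Socs2 was not called without lymph node replicate 2, nor Bcl2a1b and Bcl2a1d without replicate 1.

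Immediate early genes, which respond to TCR signals and also to handling of cells, were mixed. Of 33 tested, 15 rose, 2 fell and 16 did not pass, with a median log2 fold of 0.37. Dusp2, a phosphatase of MAP kinases, was at 680.3 and 698 CPM in iNKT1 cells and 325 and 319 CPM in the remaining cells (log2 fold 1.10 ± 0.07), and Junb rose less. Fos (ENSMUSG00000021250, chromosome 12, 85473890 to 85477273) and Fosb fell, and Fosb was not called without lymph node replicate 1. Fos went to 405 and 405 from 607 and 619 CPM (log2 fold -0.60 ± 0.07). Jun did not pass, with 354 and 389.9 against 333 and 411 CPM. The dissociation or stress list of 6 genes summed to 3045 and 3305 unscaled CPM in the iNKT1 cells and 2508 and 2741 in the remaining cells, and its part in these values was not tested.

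Of 12 genes of lymphoid homing and egress, 5 were called lower and 1 higher, with a median log2 fold of -0.34. This count was not stable. It was 2 lower without either lymph node replicate and 1 lower with DESeq2, and after thinning 2 were lower at a median of 0.15. Ccr7, which guides cells into lymph nodes, was at 16.4 and 4.22 CPM in iNKT1 cells and 38.0 and 29.0 CPM in the remaining cells. S1pr1, the receptor of egress, was at 29.5 and 33.7 against 55.0 and 53.8 CPM, and Il7r at 695 and 725 against 1217 and 1215 CPM (log2 fold -0.78 ± 0.06). Il7r is also a gene of the type 17 list, whose direction follows in part from the choice of cells. Klf3 was the gene that rose, at 113 and 86.4 against 58.4 and 53.5 CPM. S1pr1 was not called without either replicate, nor Ccr7 without replicate 2, nor Klf3 without replicate 1. Klf2, a factor that drives S1pr1, did not pass and its libraries overlapped, with 113 and 240.3 CPM in iNKT1 cells and 160.4 and 175 CPM in the remaining cells.

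In the tissue residence list 7 of 16 genes rose and none fell by this test, and 4 rose without lymph node replicate 1. Cxcr6, a chemokine receptor of tissue lymphocytes, rose only from 1810 and 2192 to 2203 and 2432 CPM (log2 fold 0.22 ± 0.04, not called without lymph node replicate 1), while Bhlhe40, a transcription factor of effector T cells, rose from 78.1 and 85.1 to 179 and 179 CPM (log2 fold 1.14 ± 0.13). Of 21 genes of the TCR complex and its proximal signalling, 8 rose and none fell by this test, with a median log2 fold of 0.20, and 4 rose without either lymph node replicate. The adhesion receptor Cd2 was at 472 and 352 against 268 and 249 CPM and the kinase Lck at 738 and 776 against 605 and 598 CPM. 

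Of 16 genes of the iNKT2 and helper list, Icos and Tcf7 fell and Izumo1r rose. Icos, a costimulatory receptor, was at 590.1 and 613 CPM in iNKT1 cells and 942 and 1026 CPM in the remaining cells, and Izumo1r, the folate receptor FR4, at 269 and 232 against 198 and 169.5 CPM, and neither Tcf7 nor Izumo1r was called without either replicate. Zbtb16, the gene of the iNKT lineage factor PLZF, which falls as iNKT1 cells mature, was at 73.8 and 67.5 against 103 and 88.0 CPM and did not pass.

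The next comparison set lymph node iNKT1 cells against spleen cells that passed the same gate (1519 and 1312 cells), which asks how iNKT1 cells differ between organs. A single fit held the 6 pools of gated cells with organ as its only term, so CPM values differ slightly from those above. Of 9027 genes tested, edgeR called 579 (6.41%), 404 higher (4.48%) and 175 lower (1.94%) in lymph node, at a median log2 fold of -0.01. At least 2-fold changes were called in 226 higher and 78 lower genes. Libraries of the 2 organs did not overlap for 48.0% of all tested genes. Less of a transcript per cell and fewer cells with it cannot be told apart in such sums.

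Immediate early and TCR response genes were higher in lymph node iNKT1 cells. Of 33 tested, 29 rose, none fell by this test and 4 did not pass, with a median log2 fold of 1.51. Fos was at 400.1 and 401 CPM in lymph node and 21.7 and 24.4 CPM in spleen (log2 fold 4.13 ± 0.19, adjusted p = 2.05e-34). Nr4a1, the gene of Nur77, which TCR signals among others induce, was at 131 and 89.8 against 4.03 and 9.22 CPM (log2 fold 4.14 ± 0.40, adjusted p = 4.23e-08), and Dusp1, a phosphatase of stress kinases, at 1494 and 1584 against 162 and 143 CPM (log2 fold 3.33 ± 0.14). All of these libraries were far apart between the organs. Smaller changes passed for Jun (349.9 and 386 against 126 and 94.1 CPM) and Cd69, an activation antigen (159 and 165 against 99.7 and 109 CPM), the latter not called without either lymph node replicate or spleen replicate 1. Myc did not pass, with 68.0 and 48.0 against 50.4 and 55.3 CPM. Cdkn1a, the gene of the cell cycle inhibitor p21, stood at 69.7 and 52.2 against 1.01 and 0.658 CPM (adjusted p = 2.46e-16, edgeR), and no fold is given because the spleen values rest on 2 and 1 UMIs. Of the stress genes in the immediate early list, Gadd45b was at 246 and 161 against 17.6 and 16.5 CPM, and Ppp1r15a at 750.0 and 670.0 against 128 and 78.3 CPM.

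The remaining cells of lymph node differed from those of spleen in the same direction. The dissociation or stress list, of which Fos, Jun, Dusp1 and Ier2 are also in the immediate early list, summed to 3045 and 3305 unscaled CPM in lymph node iNKT1 cells and 642 and 598 in spleen iNKT1 cells. All 6 of its genes were called higher against spleen, including the heat shock genes Hspa1a (38.9 and 54.3 against 1.01 and 0.658 CPM) and Hspa1b, which have near-identical sequences and rest on 2 and 1 UMIs and on 4 and 0 UMIs in the spleen libraries, so that no fold is given for them. The part of this list in the organ difference was not tested. Each of the 33 immediate early genes had a higher mean in lymph node than in spleen among iNKT1 cells, and 31 had one among the remaining cells. The median log2 ratios were 1.48 and 1.35 over the 32 genes other than Atf3, which had 0 UMIs in both spleen classes. The difference between these organ effects was tested as an interaction in the fit of 12 pools, in which 209 of 9619 genes (2.17%) were called, 142 larger (1.48%) and 67 smaller (0.697%). Outside the gate genes, 135 of 9605 were called larger and 67 smaller. Of the 33 genes, 3 (Dusp2, Ier2 and Zfp36l2, 9.09%) were called with a larger lymph node excess in iNKT1 cells, 2 (Cd69 and Rgs1, 6.06%) with a smaller one, and 28 did not pass. These became 1 and 0 with DESeq2, and none was called with no replicate block. Ier2 was not called without lymph node replicate 2 or either spleen replicate, nor Cd69 without either lymph node replicate or spleen replicate 2, nor Rgs1 without lymph node replicate 2, nor Zfp36l2 without lymph node replicate 1 or spleen replicate 2. For Fos the interaction was -0.38 on the log2 scale, with a 95% interval of -0.84 to 0.07, and for Dusp1 it was 0.10 (-0.11 to 0.32). Whether the difference arose in the animals or during preparation of the cells was not tested.

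**Figure D4:**
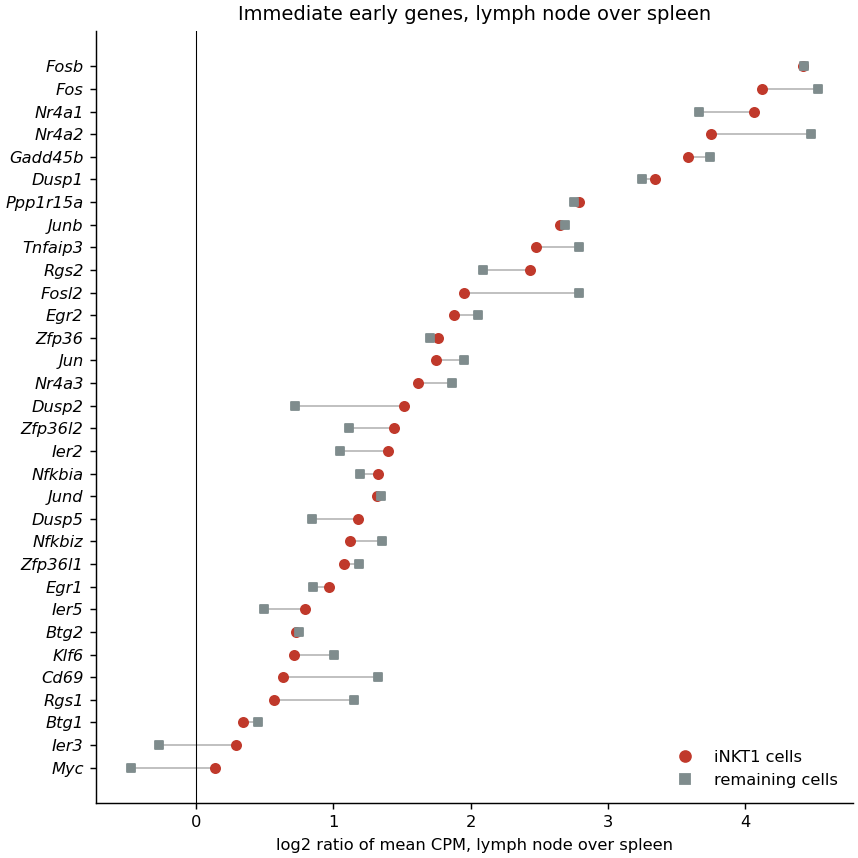
Log2 ratio of mean CPM, lymph node over spleen, for 32 immediate early genes (Atf3 is listed at 0 in spleen iNKT1 cells and is left out), in iNKT1 cells (circles) and remaining cells (squares). Most pairs lie right of 0 and close together, as for Fos at 4.12 in iNKT1 cells and 4.53 in the remaining cells.

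Genes of the type 1 programme differed between lymph node and spleen in both directions. Of 20 tested, 2 rose, 3 fell and 15 did not pass, with a median log2 fold of -0.10, which was 0.12 without spleen replicate 1. Ccl5 was at 2143 and 2624 CPM in lymph node and 7144 and 6799 CPM in spleen (log2 fold -1.55 ± 0.14, adjusted p = 2.46e-16), and Nkg7 at 1417 and 1716 against 2596 and 2709 CPM (log2 fold -0.76 ± 0.13). Hopx was at 107 and 121 against 230.2 and 281 CPM (log2 fold -1.17 ± 0.17). Ifng went the other way, at 262 and 294 against 88.1 and 71.1 CPM (log2 fold 1.79 ± 0.18, adjusted p = 1.83e-10), and so did Il18r1. Lymph node cells with 4 or more markers had 3434 and 5236 unscaled CPM of Ccl5, and spleen cells with exactly 2 markers had 5751 and 5606. Of 18 NK receptor and adaptor genes, Slamf7, Klre1, Cd226 and Hcst fell and Cd7 rose, and Klre1 was not called without lymph node replicate 1, nor Cd7 without lymph node replicate 2 or spleen replicate 2, nor Cd226 and Hcst when any 1 of the 4 libraries was left out. The 4 lower calls became 1 without lymph node replicate 1 and 2 without either spleen replicate. Klrc2 did not pass, with 143 and 123 against 142 and 139.6 CPM (log2 fold -0.08 ± 0.17, 95% interval -0.41 to 0.26).

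P2rx7 was called lower in lymph node than in both spleen and liver. This receptor of extracellular ATP (ENSMUSG00000029468, chromosome 5, 122643911 to 122691432) was at 4.86 and 8.35 CPM in lymph node, 83.6 and 66.5 CPM in spleen and 122 and 135 CPM in liver. Its adjusted p was 1.45e-12 against spleen and 1.66e-19 against liver, both from edgeR. No fold or rank is given for it, because its lymph node values rest on few UMIs. Art2b, an ADP-ribosyltransferase that acts on P2X7, was at 9.72 and 8.35 CPM in lymph node and 87.1 and 114 CPM in spleen, and has a close copy in the mouse genome. Its lymph node values also rest on few UMIs. The gut-homing chemokine receptor Ccr9 stood at 16.2 and 10.4 CPM in lymph node and 91.2 and 79.0 CPM in spleen. Ccr10 went the other way, with 81.0 and 123 CPM in lymph node, 21.7 and 17.1 CPM in spleen and 0.895 and 5.36 CPM in liver. In the whole residence list, 2 of 16 genes rose and 4 fell against spleen. P2rx7 was as low in the remaining lymph node cells, at 4.92 and 8.66 unscaled CPM.

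Of 8 Gimap genes 6 fell and none rose by this test, with a median log2 fold of -0.54, and Gimap7 changed most, from 535 and 465 CPM in spleen to 113 and 104 CPM in lymph node (log2 fold -2.19 ± 0.17). Without lymph node replicate 2, 2 of the 8 were called, and without spleen replicate 1, 3. The remaining lymph node cells were lower still. For all 8 genes the excess of iNKT1 cells over remaining cells was larger in lymph node than in spleen by the interaction test, of which Gimap5, Gimap7, Gimap8 and Gimap9 were not called without lymph node replicate 1, nor Gimap8 without lymph node replicate 2 or spleen replicate 1. For Gimap4 it was larger by 0.91 ± 0.06 on the log2 scale (adjusted p = 2.61e-27, edgeR). Of 12 genes of lymphoid homing and egress, 2 rose, 2 fell and 8 did not pass against spleen, with a median log2 fold of -0.24. Those that rose were Cxcr4, a chemokine receptor (38.9 and 43.8 against 11.1 and 7.90 CPM), and Gpr183, an oxysterol receptor that positions lymphocytes (85.9 and 75.1 against 27.2 and 16.5 CPM). Those that fell were Klf3, at 112 and 85.6 CPM in lymph node and 288 and 292 CPM in spleen, and the integrin chain gene Itga4 (13.0 and 12.5 against 34.8 and 39.5 CPM), which was not called without either lymph node replicate. Plac8, Dtx1, Atp8a2 and Lyst also fell, Dtx1, a regulator of Notch signalling, from 174 and 144 to 38.9 and 31.3 CPM.

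**Figure D5:**
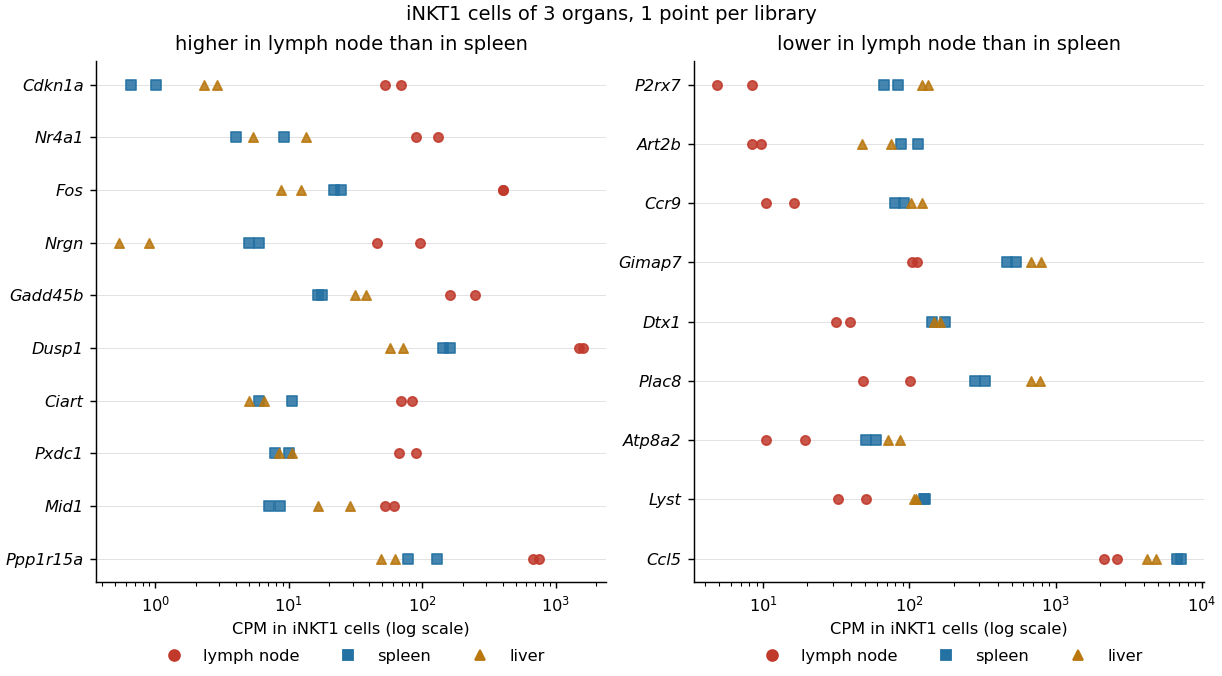
CPM on a log scale in iNKT1 cells of lymph node (circles), spleen (squares) and liver (triangles), 1 point per library, for the 10 genes with the largest increase (left) and 9 of the 10 with the largest decrease (right) in lymph node against spleen. The choice of genes required libraries of lymph node and spleen that do not overlap, which held for 48.0% of tested genes (58.9% for liver), as for P2rx7 at 4.86 and 8.35 CPM against 83.6 and 66.5 CPM in spleen.

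UMIs of type 17 genes were more frequent in the sums of lymph node than of spleen iNKT1 cells. Of 17 tested genes, 11 rose and 1 fell, with a median log2 fold of 1.35, and 7 rose without lymph node replicate 2. The 1 that fell was not called without lymph node replicate 2 or either spleen replicate. Pxdc1 was at 66.4 and 89.8 CPM in lymph node and 10.1 and 7.90 CPM in spleen, Serpinb1a at 42.1 and 62.6 against 8.56 and 11.2 CPM and Tmem176a at 102 and 79.3 against 32.2 and 21.1 CPM. In the remaining cells of lymph node Pxdc1 stood at 293 and 328 unscaled CPM, and lower in those of spleen (40.8 and 27.2). Among lymph node iNKT1 cells Pxdc1 was lower with more markers (75.9 and 107 at 2, 24.8 and 42.0 at 4 or more). With at least 3 markers 3 of 13 rose. Over the list, 16 of 19 genes had a higher mean in lymph node than in spleen among iNKT1 cells and 17 among the remaining cells, with median log2 ratios of 1.34 (17 genes with UMIs in both organs) and 2.71. The share of these UMIs that came from free RNA in the droplets was not measured, here or against liver, so they are not read as expression by the gated cells.

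Of 15 iNKT2 and helper genes 5 rose and none fell by this test. The 8 iNKT2 marker genes summed to 1396 and 1326 unscaled CPM in lymph node iNKT1 cells and 1038 and 992 in spleen iNKT1 cells. In the remaining cells they summed to 1737 and 1789 in lymph node and 1314 and 1146 in spleen. The share of free RNA in the iNKT2 and helper values was not measured, here or against liver. Nrgn, the gene of the calmodulin-binding protein neurogranin, was at 45.4 and 96.0 CPM in lymph node, 5.04 and 5.92 CPM in spleen and 0.537 and 0.893 CPM in liver, the last from 3 and 4 UMIs (log2 fold 3.65 ± 0.39 against spleen). Pdcd1, the gene of the inhibitory receptor PD-1, was at 76.1 and 56.4 CPM in lymph node and 13.1 and 21.7 CPM in spleen, and Icos at 583 and 607 against 314 and 379.8 CPM. Zbtb16 did not pass (72.9 and 66.8 against 63.5 and 57.3 CPM). In the survival list 4 of 14 genes rose (2 without spleen replicate 1). Pim1, a kinase induced by cytokines, rose from 169 and 149 to 449 and 379.9 CPM, while Bcl2 did not pass (143 and 157 against 112 and 119.8 CPM). Ciart, a repressor of the circadian clock, was at 84.2 and 68.9 against 10.6 and 5.92 CPM, and Mid1 at 61.6 and 52.2 against 7.05 and 8.56 CPM. Mid1 is X-linked, and sex and organ cannot be told apart here.

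Against liver iNKT1 cells (2182 and 2192 cells) the differences were more numerous. Of 9027 genes, edgeR called 1595 (17.7%), 929 higher (10.3%) and 666 lower (7.38%) in lymph node, 353 and 285 of them by at least 2-fold, at a median log2 fold of -0.02 over all genes. Libraries of the 2 organs did not overlap for 58.9% of tested genes. Liver iNKT1 cells were deeper, with medians of 3636 and 2882.5 UMIs against 1403.5 and 1199, and both comparisons use the same lymph node libraries, so they are not independent. Immediate early genes were again higher in lymph node, 28 of 33, with none lower by this test and a median log2 fold of 1.89. Fos was at 12.4 and 8.70 CPM in liver (log2 fold 5.22 ± 0.18) and Junb at 399.5 and 421 CPM in liver against 5103 and 5444 CPM in lymph node. Among iNKT1 cells 31 of the 33 had a higher mean in lymph node than in liver, with a median log2 ratio of 1.88, and among the remaining cells 32 did, with a median of 1.70 over the 32 genes with UMIs in both organs. As an interaction, 5 of the 33 (Gadd45b, Dusp2, Nfkbia, Ier5 and Zfp36l2) were called with a larger lymph node excess in iNKT1 cells and 2 (Fosl2 and Btg1) with a smaller one, beside 3.72 and 2.31% over all genes. These became 2 and 0 with DESeq2, 10 and 1 with type 17 genes also at 0 in the gate and 5 and 4 without Xcl1 as a marker, and none was called with no replicate block. Dusp2 and Nfkbia alone were called whichever 1 library was left out. The dissociation or stress list summed to 3045 and 3305 unscaled CPM in lymph node iNKT1 cells and 459 and 461 in liver iNKT1 cells, and its part in these values was not tested. Of its 6 genes Fos, Dusp1, Ier2 and Jun rose and Hspa1b, a heat shock gene with a near-identical copy, fell (17.8 and 20.9 against 41.2 and 45.8 CPM, not called without lymph node replicate 1).

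Of 20 type 1 effector genes 9 were called lower in lymph node than in liver, 2 were higher and 9 did not pass, with a median log2 fold of -0.52. After thinning 5 were lower. Gzmb, the granzyme B gene, stood at 14.6 and 25.0 CPM in lymph node and 149 and 225 CPM in liver (log2 fold -3.28 ± 0.34, adjusted p = 4.63e-07). Ccl5 was at 4873 and 4232 CPM in liver (log2 fold -0.94 ± 0.13) and Nkg7 at 2334 and 2792 CPM (log2 fold -0.71 ± 0.13). Ifng and Il18r1 were higher in lymph node, Ifng at 262 and 294 against 109 and 167 CPM in liver (log2 fold 1.01 ± 0.16). Of 18 receptors of cytokines, 8 were called lower and 2 higher. The lower calls became 5 without lymph node replicate 1 and 3 without lymph node replicate 2, with DESeq2, after thinning cells or with at least 3 markers. Ifngr1, the interferon-γ receptor chain, was at 204 and 276 against 506 and 547 CPM, Il4ra at 21.1 and 20.9 against 60.0 and 65.6 CPM and Il2ra at 17.8 and 14.6 against 57.1 and 60.0 CPM. Il7r was higher, at 687 and 718 against 252 and 260.2 CPM. Il7r is also a gene of the type 17 list, for which the share of free RNA was not measured. Its higher value is therefore not read as expression by the gated cells.

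Of 14 survival genes 4 fell, 3 rose and 7 did not pass against liver, with a median log2 fold of -0.30. Bcl2 (ENSMUSG00000057329, chromosome 1, 106538178 to 106714274) stood at 143 and 157 CPM in lymph node, 112 and 119.8 CPM in spleen and 857 and 576 CPM in liver (log2 fold -2.27 ± 0.17, adjusted p = 3.92e-18 against liver). Socs2 and Cish, feedback genes induced by cytokines through STAT5, fell as well, Socs2 with 84.2 and 91.8 CPM in lymph node and 284 and 263 CPM in liver, and Cish with 29.2 and 43.8 against 98.1 and 76.3 CPM. Bcl2l11, the gene of the pro-apoptotic BIM, fell with them, while Bcl2a1b, Bcl2a1d and Pim1 rose, Pim1 not being called without lymph node replicate 1 or liver replicate 1. In the residence list 9 of 16 genes fell and 3 rose. Mmp9, a gelatinase, was at 8.10 and 14.6 against 97.2 and 75.7 CPM, Itgal, the LFA-1 α chain, at 179.8 and 192 against 312 and 314 CPM, and Ccr9 at 103 and 122 CPM in liver. Cxcr6 was among the 3 that rose (2177 and 2409 against 1296 and 1820 CPM, log2 fold 0.56 ± 0.14, not called without liver replicate 1). Gimap7 stood at 674 and 789 CPM in liver, and 7 of 8 Gimap genes were lower in lymph node, Gimap8 not being called without either lymph node replicate, nor Gimap6 without replicate 2.

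Of 15 iNKT2 and helper genes 9 were higher and 2 lower in lymph node than in liver. Nrgn was among those called higher (adjusted p = 8.47e-23, edgeR). No fold or rank is given for it, because its liver values rest on the few UMIs given above. Tcf7, the factor TCF1 of less differentiated T cells, was at 115 and 125 CPM in lymph node and 57.6 and 45.8 CPM in liver. Outside the list, Id3, an inhibitor of E proteins, was at 84.2 and 75.1 against 12.4 and 12.7 CPM. Gata3 and Izumo1r also rose, Gata3 not being called without either lymph node replicate or liver replicate 2, while Cd4 and Il4ra fell, Cd4 not being called without lymph node replicate 1. Of 17 type 17 genes 11 were higher and Tmem176b was lower, at 79.4 and 58.4 CPM against 125 and 149 CPM in liver and 28.7 and 25.7 CPM in spleen. The Tmem176b value of the lymph node sums therefore lay between those of the other organs. It is not read as expression by the gated cells. Plac8, a cysteine-rich protein of lymphocytes, was lowest in lymph node, with 100.4 and 48.0 CPM against 327 and 279.8 CPM in spleen and 680.2 and 784 CPM in liver.

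The contrast between iNKT1 cells and the remaining cells was itself called larger in lymph node for genes of several lists. Against spleen, the interaction was called larger for 8 of 20 type 1 genes, 8 of 20 NK receptor genes and 8 of 8 Gimap genes, beside the 1.48% over all genes given above, and called smaller (more negative) for 5 of 19 type 17 genes and for 1 NK receptor gene, Klrb1f. These counts depended on single libraries. The 8 NK receptor genes became 1 without lymph node replicate 2, the 8 type 1 genes became 5 without either lymph node replicate or spleen replicate 1, the 8 Gimap genes became 4 without lymph node replicate 1, the 5 type 17 genes became 3 without lymph node replicate 2, and Klrb1f was not called when any 1 of the 4 libraries was left out. They also depended on the fit. With no replicate block 2 type 1, 1 NK receptor, 3 Gimap and 1 type 17 gene were called, and with DESeq2 6, 2, 7 and 3. The gate moved them as well. The type 1 genes became 5 with at least 3 markers or without Xcl1 as a marker, the NK receptor genes 5 with type 17 genes also at 0 or after thinning, and the type 17 genes 3 with type 17 genes also at 0. Nkg7 differed between iNKT1 and remaining cells by 1.03 ± 0.06 more on the log2 scale in lymph node than in spleen, where the remaining cells held 1368 and 1484 CPM. Against liver 580 genes (6.03%) were called, 358 larger (3.72%) and 222 smaller (2.31%), with 11 of 20 type 1, 11 of 20 NK receptor and 8 of 8 Gimap genes larger (Gimap8 was not called without either lymph node replicate or liver replicate 2) and 8 of 19 type 17 genes and Il18r1 of the type 1 list smaller. Outside the gate genes, 350 of 9605 were called larger and 222 smaller. The 11 NK receptor genes became 7 and Il18r1 was not called without lymph node replicate 2, and the 8 type 17 genes became 5 without liver replicate 1. With no replicate block 8 type 1, 6 NK receptor, 7 Gimap and 5 type 17 genes were called, and with DESeq2 10, 9, 7 and 4. Klrc2 was at 89.3 and 72.5 CPM in the remaining liver cells and 5.00 and 5.48 CPM in the remaining lymph node cells. The remaining cells differ in kind between the organs. In lymph node 553 and 615 of them carried Ccr6, Il23r or Blk, against 33 and 20 in spleen and 18 and 25 in liver, and the 8 iNKT1 genes outside the gate summed to 1383 and 1265 unscaled CPM in the remaining cells of lymph node, 5775 and 5449 in those of spleen and 7326 and 6195 in those of liver. At least 1 of these 8 genes had a UMI in 95.4 and 96.9% of the remaining spleen cells and 64.1 and 57.1% of the remaining lymph node cells. This makeup moves with the interaction, and its part in it was not tested.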

How the data were processed

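Droplet-based 3' single-cell libraries (10x Chromium v2) of sorted iNKT cells were given as UMI counts per gene and barcode, which the authors made with Cell Ranger 3.1.0 against mm10 and deposited without normalization. The submitters' processing notes also name Seurat. The labels give the molecule as nuclear RNA while the protocol describes whole sorted cells, and the values were treated as whole-cell counts. The annotation version is not given in the sources used here, and gene positions come from GENCODE (GRCm38), in which 27645 of 27998 listed genes were located. Ribosomal, rRNA and haemoglobin genes (189, holding 24.1 to 35.5% of UMIs) were left out. The deposited barcode and gene lists are names only.

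Barcodes with 300 to 4000 genes and at most 15% mt- UMIs were kept, and doublets were not removed (leaving out the 2% with the highest Scrublet scores was an alternative). UMIs were summed per library over gated and remaining cells. Low genes were filtered by filterByExpr, sums were scaled by TMM, and edgeR 4.0.16 (R 4.3.3) ran its quasi-likelihood test, two-sided, with Benjamini-Hochberg adjustment. Gated and remaining cells, and the interaction, were compared in 12 sums with library as a block (3 residual degrees of freedom); organs were compared in 6 sums of gated cells. With 2 libraries per organ, p-values of the organ comparisons measure only the spread between these libraries. In the 12 sums the block takes out differences between libraries. Those p-values measure how evenly gated and remaining cells differed within libraries, with the spread estimated over all 6 libraries. Without the genes left out, the gated lymph node sums held 640631 and 492322 UMIs. Exact binomial intervals cover counting error only.

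The genes named were the 12 (remaining cells) or 10 (each organ) with the largest fold in each direction among those called, at a CPM of at least 50 in the higher group, changed the same way in both libraries (for organs, with no overlap); the 4 largest for each interaction; Fos, Jun, Bcl2, Klf2, Ifng, Ccl5 and Zbtb16; and, for a list, up to 3 members with the largest and 1 with the smallest fold. Gate genes, ribosomal, mitochondrial, Xist, Y-linked and unnamed genes were not named by fold. The X-linked gene Mid1 was named by fold. Some genes are not reported here. Other list members and Id3 were named after their values were seen. The members and lists were chosen with earlier results of these data known. Alternatives were DESeq2 1.42.0, no filter, other gates, thinned cells or sums, the block, and leaving out each replicate. The fits were tested on simulated data.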

Additional observations from a re-analysis of the deposited data

Results flagged for a closer look

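Results are listed here because the contrast between iNKT1 and remaining cells differed between lymph node and another organ by a test of that difference itself (interaction, edgeR, n = 2 libraries per organ). Each value is the lymph node contrast minus the other contrast on the log2 scale. Against spleen it was 2.66 for Hist1h2ap, 2.46 for Hist1h2ae (-4.34 after thinning cells to 1000 UMIs), 2.44 for Klra9 and 2.43 for Rrm2. It was -1.89 for Actn2, -1.74 for Tmem176b, -1.72 for Furin and -1.34 for Gclc. Against liver it was 4.50 for Hist1h2ap, 3.66 for Klrc2, 3.60 for Rrm2 and 3.40 for Mxd3. It was -2.42 for Tmem176b, -2.17 for Actn2, -2.0 for Tmem176a and -1.84 for Ltb4r1.

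Hist1h2ap, Hist1h2ae, Rrm2 and Mxd3 are genes of dividing cells. The gate removed cells with a Top2a UMI, so such cells are among the remaining cells of every organ (76 and 84 cells in lymph node, 96 and 128 in spleen, 188 and 187 in liver). Hist1h2ap stood at 106 and 93.2 CPM in the remaining lymph node cells and 2196 and 1055 CPM in the remaining liver cells. Rrm2, a subunit of ribonucleotide reductase, was at 44.3 and 109.6 CPM in lymph node iNKT1 cells, and the histone genes have near-identical copies. Klra9 rested on few UMIs, with 11.5 and 63.2 CPM in the iNKT1 cells of the 2 lymph node libraries. Tmem176b and Actn2, which were lower in lymph node iNKT1 cells than in the remaining cells, were near equal between these classes in spleen (29.0 and 25.9 against 31.4 and 31.0 CPM for Tmem176b).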

How the results depend on the processing

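Counts of called genes, gate genes included, moved most. Against the remaining lymph node cells, 680 became 268 with DESeq2, 314 with no replicate block (the library term dropped), 437 with remaining cells restricted to those without an excluded gene, 402 with at least 3 markers and 407 after thinning to 1000 UMIs; without 1 lymph node replicate it was 282 to 316. Against spleen, 579 became 289 with DESeq2, 385 with pools thinned to one total, 279 with at least 3 markers, 383 without Xcl1 as a marker and 271 after thinning cells, and 306 to 390 without 1 replicate. Against liver, 1595 became 894, 989 and 892 under the first 3 of these and 696 after thinning cells, and 844 to 1655 without 1 replicate. The interaction with spleen gave 209 genes, 64 with DESeq2, 23 with no replicate block, 95 after thinning and 65 to 183 without 1 replicate. That with liver gave 580 genes, 188 with DESeq2, 163 with no replicate block, 338 with at least 3 markers, 161 after thinning and 258 to 464 without 1 replicate. The share of iNKT1 cells was 7.52% with at least 3 markers, 13.6% without Xcl1, 14.7% with type 17 genes also at 0 and 11.9% after thinning. The cause was not tested, except that fewer libraries or UMIs enter some settings.

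The share of calls that were higher was 72.0% with DESeq2 and 65.2% without lymph node replicate 2 (53.7% as reported) against remaining cells, and with DESeq2 82.0% (69.8%) against spleen and 70.1% (58.2%) against liver. For the interaction with spleen it was 82.8% with DESeq2 and 78.5% without lymph node replicate 2 (67.9%), and for that with liver 90.4% with DESeq2, 47.5% with no filter, 82.2% with no replicate block, 73.3% after thinning and 78.3 and 76.7% without lymph node replicate 1 or 2 (61.7%).

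Counts within lists moved too. Against remaining cells with no replicate block, the higher calls went from 15 to 7 for immediate early, 8 to 2 for TCR complex and 7 to 4 for residence genes, and after thinning from 4 to 1 for survival genes. After thinning, the higher calls against spleen went from 11 to 5 for type 17 and 5 to 2 for iNKT2 and helper genes. Against liver they went from 11 to 5 and 9 to 4, and the lower calls from 9 to 5 for type 1 and 7 to 4 for Gimap genes. For the interaction with liver, thinning took the type 17 genes from 8 to 5. Some counts grew, as did the higher type 1 calls from 2 to 4 against spleen with a replicate block and against liver with at least 3 markers, and with type 17 genes also at 0 the iNKT2 and helper calls against remaining cells from 1 to 3 higher and 2 to 4 lower.

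Of the genes followed and called, 41 of 61 (remaining lymph node cells), 33 of 45 (spleen) and 47 of 60 (liver) kept their call in every setting that tested them, but only 6 of 33 and 11 of 41 of the interactions. Directions were steadier than calls. Reversed values were Cd7 (0.33) and Stmn1 (0.60) with remaining cells without an excluded gene, and after thinning Stmn1 against liver (-0.0412), Hist1h2ae against spleen (-4.34) and Cd84 (0.0681) and Mki67 (-4.33) against liver as interactions. Replicate numbers did not pair the organs (correlations of deviations 0.0233 for lymph node with spleen, 0.0232 with liver and 0.0705 for spleen with liver); with a replicate block 705 genes were called against spleen and 1847 against liver. On simulated sums, 50% of 2-fold and 83.7% of 4-fold changes were recovered against remaining cells, so smaller changes can be missed. The simulation gave all sums a single expression profile. Its spread beyond counting error was larger than in the fit of 12 sums (common dispersion 0.000255). These rates therefore need not hold for the data.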
